A study of Mus musculus with 12 samples.

Results

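The genes described here are 9 components and receptors of the complement system, C1qa, C1qb, C1qc, C4b, C2, C3, Cfb, C3ar1 and C5ar1, in the white adipose tissue of mice fed a high-fat diet (HFD). They were taken by gene symbol, and all 9 were found among the 27179 genes measured by RNA-seq in inguinal WAT (iWAT) and epididymal WAT (eWAT). The complement adipokine Cfd was left out of this group. The study sampled C57/BL6 control mice, the mice without the mutation in a study of intestinal Hnf4a deletion, in 4 groups of 3 samples, 12 in all: iWAT after the GIP analog, iWAT after saline, eWAT after the GIP analog and eWAT after saline. The analog, (D-Ala2)GIP[Lys37PAL], is a stabilised, acylated agonist of the receptor for the gut hormone GIP. All groups had 2 weeks of HFD with 5 subcutaneous injections of saline or of the analog at 2 pmol/kg, after 10 days on chow with 3 injections, the last of which was the analog in the analog groups only. The labels do not say whether both depots came from the same mice, and give neither age nor sex. The paper states that its experiments used adult mice of a stated age range and names its focus on males as a limit. It does not give age or sex for these samples by name.

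The values are the authors' average log2 CPM (counts scaled to the library total) of each gene in each depot. Analog and saline samples are pooled in this average, so nothing here separates the treatments. The columns of values per sample carry numbers that match no sample label and were not used, and therefore no depth, SD, n or test stands behind any value below. The tables of both depots were normalised separately, and a level set across them is a comparison of averages whose spread is unknown. Markers of each depot were high where the labels place them. Tbx15, a transcription factor of subcutaneous fat, averaged 3.80 log2 CPM in iWAT and −1.75 in eWAT, while Upk3b, a mesothelial gene of visceral fat, averaged −2.40 in iWAT and 7.22 in eWAT. Adipoq was high in both, at 11.6 log2 CPM in iWAT and 11.8 in eWAT.

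Complement is a cascade of plasma proteins that marks particles for uptake, attracts leukocytes and opens pores in membranes. In the classical pathway, C1q binds a surface and a partner protease cuts C4 and C2, whose fragments together form an enzyme that cleaves C3. In the alternative pathway, factor B joins activated C3 and is cut by factor D, the product of Cfd, which is made chiefly by adipocytes, and the small fragments C3a and C5a signal through C3ar1 and C5ar1 on myeloid cells.

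The complement genes ranged from moderate to high expression in both depots. All 9 passed an average CPM of 1, a limit reached by 13837 genes in iWAT and 13657 in eWAT. Their CPM spanned 24.0-fold between the highest and lowest gene in each depot, and summed to 1497 CPM in iWAT and 1131 CPM in eWAT, or 0.150% of the counts in iWAT and 0.113% in eWAT. Cfb was the highest by CPM, followed by C4b and C3 in both depots, and C3ar1 was the lowest. Cfb exceeded 98.2% of the genes above the limit in iWAT and 97.2% in eWAT, whereas C3ar1 exceeded 52.5% in iWAT and 43.8% in eWAT.

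**Figure D1:**
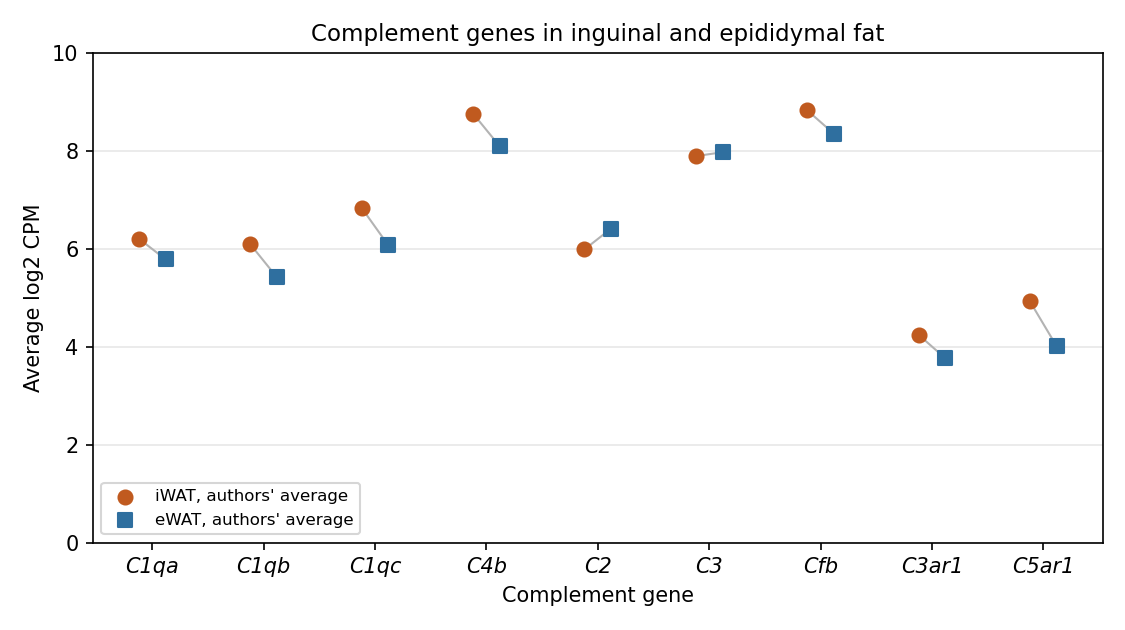
Average log2 CPM of each complement gene (y axis) in iWAT (circles) and eWAT (squares), 1 authors' average per point with no error available. Cfb, C4b and C3 lie between 7.89 and 8.83, the receptors C3ar1 and C5ar1 between 3.76 and 4.93, and the iWAT point is the higher of the pair for 7 of 9 genes.

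C1qa, C1qb and C1qc encode the chains A, B and C of C1q, the recognition protein of the classical pathway, for which macrophages are a main source. The 3 genes are neighbours on chromosome 4 of GRCm38, on the minus strand, in the order C1qb (chr4:136880129-136886187), C1qc (chr4:136889804-136893065) and C1qa (chr4:136895917-136898803). C1qa averaged 73.9 CPM in iWAT and 55.1 CPM in eWAT. C1qb averaged 68.3 CPM in iWAT and 42.7 CPM in eWAT. C1qc averaged 114 CPM in iWAT and 67.2 CPM in eWAT. The chains were therefore within 1.67-fold of each other in iWAT and 1.57-fold in eWAT, with C1qc the highest in both. Per kilobase of exon, which allows levels of different genes to be compared, they lay between 62.7 and 94.9 CPM in iWAT and between 39.2 and 55.8 CPM in eWAT. Pairwise, 60.7% to 65.4% of the aligned bases of their coding sequences are identical, and no stretch of 40 bases, the read length, in any of the 3 transcripts occurs in a transcript of another gene in GENCODE M21.

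C4b and C2 supply the classical enzyme that cleaves C3. C4b (gene 12268, chr17:34728380-34743882) averaged 434 CPM in iWAT and 273 CPM in eWAT. C2 (gene 12263, chr17:34862604-34898265) averaged 63.4 CPM in iWAT and 85.3 CPM in eWAT. C4b thus exceeded C2 by 3.73-fold per kilobase in iWAT and by 1.74-fold per kilobase in eWAT. C3 (gene 12266, chr17:57203970-57228136), the component on which all pathways converge, averaged 238 CPM in iWAT and 251 CPM in eWAT. C4b and C3 are related proteins that bind surfaces through an internal thioester. The stretches that encode it are shown because this site is what makes C3 and C4 covalent labels. Capitals mark the 5 codons that hold the cysteine and glutamine of the bond, in exon 24 of both transcripts (C3 at chr17:57215829-57215873 and C4b at chr17:34734466-34734510, minus strand, coding strand shown, from GENCODE M21 on GRCm38).
C3: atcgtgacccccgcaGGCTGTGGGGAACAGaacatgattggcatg
C4b: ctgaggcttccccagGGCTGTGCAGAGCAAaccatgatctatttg
Over their whole coding sequences, 60.7% of the aligned bases of C4b and C3 are identical.

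The C4b value carries an uncertainty of its own, because C4a, a near copy of C4b on the same chromosome (chr17:34809092-34823464), is 96.1% identical to it over 5367 aligned transcript bases. Of the 40-base windows of the C4b transcript, 41.9% also occur in C4a, and how the authors' counting treated reads from such windows is not stated. C4a averaged 61.2 CPM in iWAT and 36.3 CPM in eWAT, so that C4b exceeded it by 7.10-fold in iWAT and 7.53-fold in eWAT. The stretch of 60 bases of the C4b coding sequence that differs most from the aligned C4a transcript has 13 differing bases, in capitals. It is shown because reads across these bases can be told apart as C4b or C4a. It lies in exon 21 of each transcript (C4b at chr17:34735430-34735489 and C4a at chr17:34816086-34816145, minus strand).
C4b: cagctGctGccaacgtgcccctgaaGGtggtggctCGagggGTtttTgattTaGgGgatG
C4a: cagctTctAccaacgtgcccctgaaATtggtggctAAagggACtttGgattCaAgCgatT

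Cfb encodes factor B, the protease of the alternative pathway and the counterpart of C2. It had the highest level of the 9 genes also per kilobase, at 161 CPM in iWAT and 116 CPM in eWAT. By CPM it averaged 455 in iWAT and 326 in eWAT, and per kilobase it exceeded C3 by 3.48-fold in iWAT and 2.36-fold in eWAT, and C2 by 7.45-fold in iWAT and 3.97-fold in eWAT. Cfb (gene 14962, chr17:34856374-34862518) lies next to C2 on the same strand, and 60.5% of the aligned bases of their coding sequences are identical. Both encode a serine protease domain, and the stretches around the codon of the active serine are shown to set the pair side by side. Capitals mark 5 codons with the serine in the middle, and each stretch crosses the junction of exons 16 and 17 of its transcript (C2 within chr17:34863200-34863360 and Cfb within chr17:34856901-34857019, minus strand).
C2: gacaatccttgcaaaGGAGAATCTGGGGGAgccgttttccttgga
Cfb: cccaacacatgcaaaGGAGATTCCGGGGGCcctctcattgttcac
The 2 genes do not share a 40-base window with each other, but GENCODE M21 also annotates a read-through gene, Gm20547, over both. Of the windows of the longest transcript, 58.9% for C2 and 81.5% for Cfb also occur in Gm20547. The authors' annotation is not stated, and the part of this overlap in either value was not tested.

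The anaphylatoxin receptors were the lowest of the 9 genes. C5ar1 (gene 12273, chr7:16246743-16259540), the receptor of C5a on neutrophils and macrophages, averaged 30.4 CPM in iWAT and 16.1 CPM in eWAT. C3ar1 (gene 12267, chr6:122847138-122856161), the receptor of C3a, averaged 19.0 CPM in iWAT and 13.6 CPM in eWAT. Per kilobase of exon, C5ar1 stood at 11.8 CPM in iWAT and 6.27 CPM in eWAT, and C3ar1 at 4.41 CPM in iWAT and 3.16 CPM in eWAT. The ligand gene C3 exceeded its receptor gene by 10.5-fold per kilobase in iWAT and 15.5-fold in eWAT.

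Correction for length changed the order of the genes. Per kilobase, Cfb remained the highest in both depots and C3ar1 the lowest, but C1qc came next to Cfb in both, and C3, which followed Cfb and C4b by CPM, stood behind all C1q chains in iWAT and behind C1qc and C1qa in eWAT. In iWAT the order was Cfb, C1qc, C4b, C1qa, C1qb, C3, C2, C5ar1 and C3ar1. In eWAT it was Cfb, C1qc, C1qa, C4b, C3, C1qb, C2, C5ar1 and C3ar1. C1qc, C1qa, C4b and C3 lay close together in eWAT, between 48.9 and 55.8 CPM per kilobase, and without values per sample it cannot be said which neighbours in either order differ beyond their spread.

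**Figure D2:**
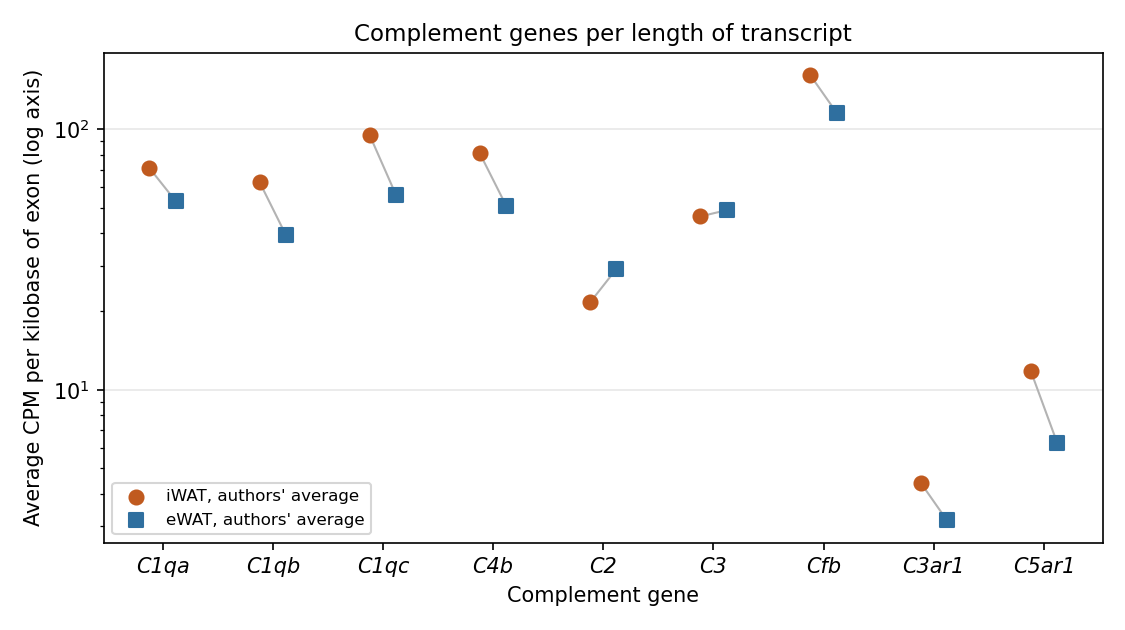
Average CPM per kilobase of exon (y axis, log scale) of each complement gene in iWAT (circles) and eWAT (squares), with lengths from GENCODE M21 and no error available. Cfb is the highest at 161 in iWAT and 116 in eWAT, and C3ar1 the lowest at 4.41 in iWAT and 3.16 in eWAT.

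Between depots, most of the complement genes were somewhat higher in iWAT, and none differed by 2-fold in the averages as deposited. The difference of average log2 CPM, iWAT minus eWAT, was above 0 for 7 of 9 genes, whereas 51.8% of the 14297 genes that reached 1 CPM in either depot lay above 0. None of the 9 was more than 2-fold higher in iWAT, where 7.25% of the 14297 genes were, and none was more than 2-fold lower, where 4.48% were. All 9 reached 1 CPM in both depots, as did 13197 genes, of which 51.3% were higher in iWAT, 4.18% were more than 2-fold higher, and 3.05% were more than 2-fold lower. Over the 14297 genes that reached 1 CPM in either depot, the median difference was 0.02, with quartiles of −0.28 and 0.30. The median difference of the 9 genes was 0.48, a 1.40-fold higher level in iWAT. C5ar1 had the largest difference, 0.92 or 1.89-fold higher in iWAT, followed by C1qc at 0.77, C1qb at 0.68 and C4b at 0.67. C3ar1 and Cfb both stood at 0.48 and C1qa at 0.42. C3 was nearly level, at −0.08, and C2 was the lowest of the 9, at −0.43 or 0.743-fold of its eWAT level. C2 and its neighbour Cfb thus lay on opposite sides of 0. The differences were also centred on the median of 15 adipocyte genes, of which 5 were higher and 10 lower in iWAT, a setting chosen after seeing the data. With this centring, C5ar1 stood at 1.17 and C1qc at 1.02, past 2-fold, and C3 at 0.18, above 0. The share of all genes past 2-fold with this centring was not computed, so these 2 genes have no background beside them. None of these differences could be tested against the spread between samples.

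**Figure D3:**
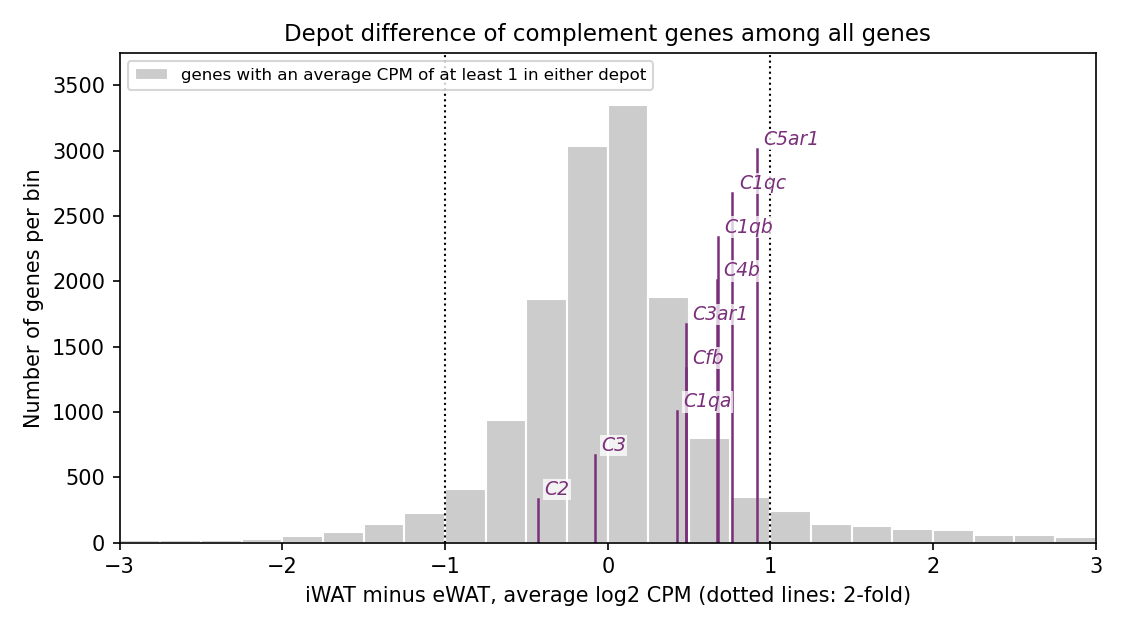
Number of genes (y axis) by iWAT minus eWAT difference of average log2 CPM (x axis, bins of 0.25, shown from −3 to 3) for genes that reached 1 CPM in either depot, with vertical lines at the 9 complement genes, whose heights carry no value. All 9 lie between the dotted 2-fold lines, from −0.43 for C2 to 0.92 for C5ar1.

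Genes of other cell types also differed between depots in these averages. For the counts below, 51.8% of the 14297 genes at 1 CPM in either depot were higher in iWAT. More than 2-fold higher were 7.25%, and more than 2-fold lower 4.48%. Of 26 macrophage and monocyte genes, 23 were higher and 3 lower in iWAT, 4 and 2 of them by more than 2-fold. They had a median difference of 0.62 and a summed level of 1395 CPM in iWAT and 963 CPM in eWAT. Among them the macrophage receptor Adgre1 averaged 5.25 log2 CPM in iWAT and 4.47 in eWAT, and Cd68 averaged 5.18 in iWAT and 4.68 in eWAT. The 2 genes more than 2-fold lower in iWAT were Trem2, with a difference of −1.44, and Mertk, with −1.11. All 15 B cell genes and all 15 T cell genes were more than 2-fold higher in iWAT, with medians of 4.09 and 2.99. Only 7 of the B cell genes and 10 of the T cell genes reached 1 CPM in eWAT, so that these medians rest partly on low eWAT values. The B cell genes summed to 319 CPM in iWAT and 22.4 CPM in eWAT, and Cd79a, a chain of the B cell receptor, averaged 5.78 log2 CPM in iWAT and 0.73 in eWAT. Of 9 expressed genes listed for lymph node stroma, 8 were more than 2-fold higher in iWAT and 1 more than 2-fold lower. Only 4 of the 9 reached 1 CPM in eWAT, 3 of them more than 2-fold higher in iWAT and 1 more than 2-fold lower. Cr2 is in this list and also among the other complement genes below. Adipocyte genes had a median difference of −0.26 over 15 genes and mesothelial genes one of −4.67 over 10, of which 3 reached 1 CPM in iWAT. The part of these cell types in the levels of the complement genes was not tested, and in bulk tissue a different number of cells and a different amount of RNA per cell cannot be told apart.

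**Figure D4:**
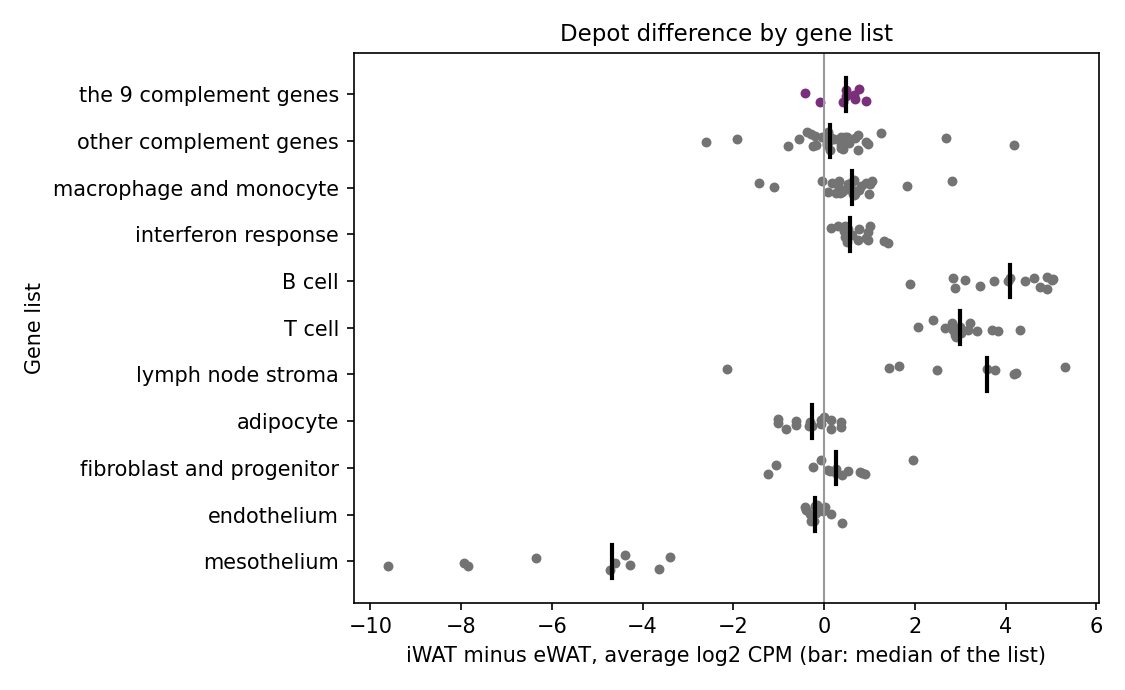
Difference of average log2 CPM, iWAT minus eWAT (x axis), for genes that reached 1 CPM in either depot, 1 point per gene and 1 row per gene list, with a bar at the median. The 9 complement genes have a median of 0.48, the macrophage and monocyte list 0.62, the interferon list 0.58, the fibroblast list 0.26, the B cell list 4.09 and the mesothelium list −4.67.

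Of 48 other complement genes, 31 passed an average CPM of 1 in iWAT and 31 in eWAT, 33 in either. Among these 33, 23 were higher and 10 lower in iWAT, 3 and 2 of them by more than 2-fold, with a median difference of 0.14. Over all 14297 genes, 51.8% were higher, 7.25% past 2-fold higher and 4.48% past 2-fold lower, with a median of 0.02. Only 29 of the 33 reached 1 CPM in both depots, 21 higher and 8 lower in iWAT, with 1 past 2-fold in each direction. Of the 13197 genes at 1 CPM in both depots, 51.3% were higher, 4.18% past 2-fold higher and 3.05% past 2-fold lower. The C1 proteases, which C1q carries, were all expressed, and C1s1 was the highest of the 4 at 218 CPM in iWAT and 197 CPM in eWAT. Of 8 genes of the lectin pathway, which starts the cascade from sugars in place of C1q, 3 passed in iWAT and 4 in eWAT. Mbl1, one of the mannose-binding lectins, was at the lowest value of both tables. That lowest value was −2.82 log2 CPM in iWAT and −2.33 in eWAT, shared by 6123 genes in iWAT and 6814 in eWAT.

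Of the listed partners of Cfb, Cfd lay far above Cfb in both depots and Cfp below it. Cfd averaged 9410 CPM in iWAT and 7241 CPM in eWAT, 20.7-fold the CPM of Cfb in iWAT and 22.2-fold in eWAT. Per kilobase of exon, Cfd exceeded Cfb by 63.3-fold in iWAT and 68.0-fold in eWAT. Cfp, which encodes the stabiliser properdin, averaged 78.5 CPM in iWAT and 41.4 CPM in eWAT. The terminal pathway, which builds the membrane pore, was uneven. Hc, which encodes C5, the source of the C5ar1 ligand, averaged 0.399 CPM in iWAT and was at the lowest value of the table in eWAT. C7 averaged 161 CPM in iWAT and 67.5 CPM in eWAT, and C6 averaged 8.32 CPM in iWAT and 50.4 CPM in eWAT, so that these terminal components lay on opposite sides by more than 2-fold. C8a, C8b and C9 were below 1 CPM in both depots. Of 18 regulators, 11 passed in iWAT and 10 in eWAT. The highest were Serping1, the inhibitor of the C1 proteases, at 490 CPM in iWAT and 335 CPM in eWAT, and Cd59a, which blocks the membrane pore, at 384 CPM in iWAT and 331 CPM in eWAT. Cr2, a complement receptor of B cells and follicular dendritic cells, had the largest difference of the 33 genes, with 10.0 CPM in iWAT and 0.547 CPM in eWAT, beside the B cell genes described above. These other genes were named after their values were seen.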

How the data were processed

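RNA-seq of iWAT and eWAT was made from 200 ng of RNA per sample with poly(A) selection and paired reads of 40 bases. Per the labels and the methods, the authors used Trim Galore 0.6.4 for trimming, Rsubread for alignment to GRCm38, DESeq2 1.32.0 to filter low counts and edgeR 3.34.0 for the comparison. The counting step, annotation and prior count are not given in the sources used here. The authors deposited 1 table per depot, and the values used are its average log2 CPM, computed by the authors over analog and saline samples. A further 12 columns, 6 in each table, bear numbers that no label explains and were left out, so that the depth per sample is unknown. The tables also hold the authors' own comparison of the treatments (fold changes, likelihood ratios and p-values), which was not used.

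The planned edgeR tests needed values per sample and were not run, nor was the search for genes of like pattern. Instead, average log2 CPM was turned into CPM, divided by the union of exons of protein-coding transcripts in GENCODE M21 (GRCm38), and compared between depots as a difference, without test, over genes that reached 1 CPM in either depot. A difference above 1 in log2 was counted as past 2-fold. Windows of 40 bases of the longest coding transcript were searched on both strands of all GENCODE M21 transcripts, and pairs were aligned globally. All 9 genes are named. The members and gene lists were chosen with earlier results of these data known. The difference and the count of genes past 2-fold were tested on simulated data. The code that gave the percentages of genes exceeded by Cfb and C3ar1 was not part of that test. Python 3.11.15, numpy 2.4.6, pandas 2.3.3, Biopython 1.88 and matplotlib 3.10.9 were used.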

Additional observations from a re-analysis of the deposited data

How the results depend on the processing

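None of the alternatives planned before the tables were read could be run, since another test or normalization, another count filter, a left-out replicate and the joint fit all need values per sample. No paired analysis was possible because the columns of values per sample carry no replicate numbers of the labels. The following settings were chosen after seeing the data. Centring the depot difference on the median of all genes at 1 CPM in both depots subtracted the same 0.01 from every gene. The small shift of the 9 genes and their median was therefore fixed in advance and is no test of them. Centring it on the adipocyte list, whose median was −0.26, raised the median of the 9 genes to 0.74 and turned C3 to 0.18, on the other side of 0, while C5ar1 and C1qc passed 2-fold at 1.17 and 1.02. The share of all genes past 2-fold after this centring was not computed. With genes at 1 CPM in both depots, 552 genes were past 2-fold higher in iWAT and 403 lower, against 1036 and 640, and this setting leaves out genes under 1 CPM in one depot. With genes at 2 CPM in either depot, the counts were 797 and 498. Taking the longest transcript as length moved C2 to 24.0 CPM per kilobase in iWAT and 32.3 in eWAT, and no other gene by 1.1-fold. No value here has an error from replicates, and the depth behind it is unknown.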

Other observations

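Genes that respond to interferon were higher in iWAT in the averages of the authors. All 18 of the list had a higher average in iWAT, with a median difference of 0.58 in log2 CPM, and 3 of them were past 2-fold. Of the 14297 genes at 1 CPM in either depot, 51.8% were higher in iWAT, 7.25% past 2-fold higher and 4.48% past 2-fold lower. Acute phase and NF-kB genes did not share the direction of the interferon list. Of 11 expressed genes, 4 were higher and 7 lower in iWAT, 3 of the latter past 2-fold, with a median of −0.58. The B cell and T cell lists, with medians of 4.09 and 2.99, moved with the same contrast, and their part in the interferon list was not tested, nor was a relation of that list to the complement genes.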
